A study of Arabidopsis thaliana with 4 samples.

Results

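Ascorbate peroxidases, catalases and superoxide dismutases remove superoxide and hydrogen peroxide inside plant cells. The list followed here holds 10 such genes of Arabidopsis. They were chosen for the function and compartment of their products, with earlier results of these data known. Of the 10, 2 had a named probe set of their own and were measured, namely sAPX (AT4G08390) and tAPX (AT1G77490). They were found by locus, through the platform's table of probe sets and RefSeq locus tags. Through that table no probe set of their own was matched to the cytosolic ascorbate peroxidases APX1 (AT1G07890) and APX2 (AT3G09640), the peroxisomal APX3 (AT4G35000), the catalases CAT1 (AT1G20630), CAT2 (AT4G35090) and CAT3 (AT1G20620), and the superoxide dismutases CSD2 (AT2G28190) and FSD1 (AT4G25100). These 8 genes were not analysed here. The table leaves 8730 of the 22746 probe sets tested without a name, and probe sets with several genes were not used. The array may therefore still hold probe sets for these 8 genes. The measured genes are thus the chloroplast ascorbate peroxidases of the list, and cytosol and peroxisome could not be compared with the chloroplast.

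Superoxide formed at photosystem I is converted to hydrogen peroxide by superoxide dismutases, and ascorbate peroxidases then reduce hydrogen peroxide to water with ascorbate as the electron donor. The product of tAPX is anchored in the thylakoid membrane, close to the site where superoxide forms, whereas that of sAPX is soluble in the stroma and is also imported into mitochondria. Oxidised ascorbate is reduced again by monodehydroascorbate and dehydroascorbate reductases, glutathione for the second of these being regenerated by glutathione reductase, and peroxiredoxins fed by thioredoxins form a parallel route for peroxide removal in plastids. The secreted class III peroxidases of the cell wall are a separate family.

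RNA came from whole 14-day-old KUA1-IOX seedlings in the Col-0 background, a stable T3 line in which estradiol lets the constitutively made activator XVE enter the nucleus and switch on KUA1, a MYB-like transcription factor, from a LexA promoter. The estradiol group received 15 µM estradiol in ethanol for 4 h in liquid medium and the mock group ethanol alone, with 2 biological replicates in each and 1 Affymetrix ATH1 array per replicate. A label field gives the mock samples as control genotype, whereas their titles and the study's methods give KUA1-IOX for both groups. Estradiol-treated seedlings without the construct are not among the samples, so the effects of estradiol and of KUA1 induction cannot be told apart, and in whole seedlings fewer cells of a type and less RNA per cell cannot be told apart either.

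KUA1 itself had signals of 1887 and 3373 in estradiol-treated seedlings, against 203 and 170.2 in mock-treated seedlings, a log2 fold change of 3.76 ± 0.29 (SE). Signals are linear MAS5 values, scaled by the authors so that the mean of each array was 100.0 with the lowest and highest 2% of probe sets left out. They compare a probe set between arrays and do not rank transcripts of different genes. Over 22746 probe sets, limma, a linear model with a spread shared across probe sets, called 0 at an adjusted p under 0.05, and the smallest adjusted p was 0.158. KUA1 had this value, at an unadjusted limma p of 1.88e-05, and the adjustment can give the same value to several probe sets. At an unadjusted p under 0.05 there were 1481 probe sets, and the methods' t-test called 0 after adjustment. A probe set is called dim in a group where its mean log2 signal ranked among the lowest 40% there, and 14060 were brighter than this in at least 1 group. Of the marker genes for roots and root hairs 2 of 8 were measured, with summed signals of 40.5 and 36.7 after estradiol against 62.8 and 102 in mock and a median log2 fold change of -1.12, further from 0 than those of both ascorbate peroxidases. The root hair expansins EXPA18 (AT1G62980), with 12.8 and 13.8 after estradiol against 27.7 and 46.9 in mock and dim after estradiol, and EXPA7 (AT1G12560), with 27.7 and 22.9 after estradiol against 35.1 and 55.2 in mock, had log2 fold changes of -1.44 and -0.80. Their groups did not overlap and both had an unadjusted p under 0.05 (0.0061 and 0.0383), but neither was called after adjustment. The median of this pair was -0.51 on the log2(signal + 32) scale, and -1.48 or -0.77 without mock replicate 1 or 2. Of those for photosynthetic leaf tissue 1 of 8 was measured, RCA (rubisco activase), with signals of 2298 and 2624 after estradiol against 2622 and 2693 in mock. Their part in the results below was not tested.

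The chloroplast ascorbate peroxidases both had lower signals on each estradiol array than on either mock array, sAPX at -0.34 and tAPX at -0.50 in log2 fold change, but neither passed the adjusted test. Of the 2 genes, 0 were called by limma at an adjusted p under 0.05, a rule under which 0% of all probe sets were called. In 2 of the 2 the estradiol arrays both lay under both mock arrays, as they did in 18.0% of all probe sets, and in 0 they both lay above, as in 16.1%. Their log2 fold changes had a median of -0.42, against -0.008 over all probe sets.

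The stromal enzyme's gene, sAPX, had signals of 484 and 503 in estradiol-treated seedlings and of 626 and 620 in mock-treated seedlings. The replicates thus lay close together in both groups, at 494 ± 13.3 after estradiol and 623 ± 4.85 in mock (SD, n = 2 arrays each), and the groups did not overlap, the higher estradiol signal being 18.8% below the lower mock signal. The log2 fold change was -0.34 ± 0.14 (SE), or -20.7% between geometric means. Its 95% interval ran from -0.68 to 0.01 on the log2 scale. Limma gave an unadjusted p of 0.0541 and an adjusted p of 0.774. Each of the 4 comparisons of an estradiol with a mock array gave a similar value, between -0.37 and -0.30, whereas replicates differed by 0.05 after estradiol and by -0.02 in mock (replicate 2 minus replicate 1, log2). sAPX was a bright probe set, at the 94.0th and 94.2nd percentile of signals on the estradiol arrays and at the 95.5th and 95.6th on the mock arrays.

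The thylakoid enzyme's gene, tAPX, had signals of 91.1 and 75.1 in estradiol-treated seedlings and of 120.0 and 114 in mock-treated seedlings. The mock replicates were close and the estradiol replicates lay further apart, with replicate 2 the lowest array. Means were 83.1 ± 11.3 after estradiol and 117 ± 4.00 in mock (SD, n = 2 arrays each), and the higher estradiol signal was 20.4% below the lower mock signal. The log2 fold change was -0.50 ± 0.17 (SE), or -29.4% between geometric means, with a 95% interval of -0.93 to -0.07. In limma the unadjusted p was 0.0285 and the adjusted p 0.680, and without estradiol replicate 2, without mock replicate 1 or without mock replicate 2 the unadjusted p was 0.153, 0.111 or 0.0741. An unadjusted p under 0.05 with a lower signal was seen in 3.79% of all probe sets. Single estradiol and mock arrays differed by -0.68 to -0.33 on the log2 scale, against -0.28 between the estradiol replicates and -0.07 between the mock replicates, so that the smallest difference between groups was only slightly larger than that between the estradiol replicates. tAPX stood at the 69.8th and 66.0th percentile on the estradiol arrays and at the 75.6th and 74.6th on the mock arrays.

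**Figure D1:**
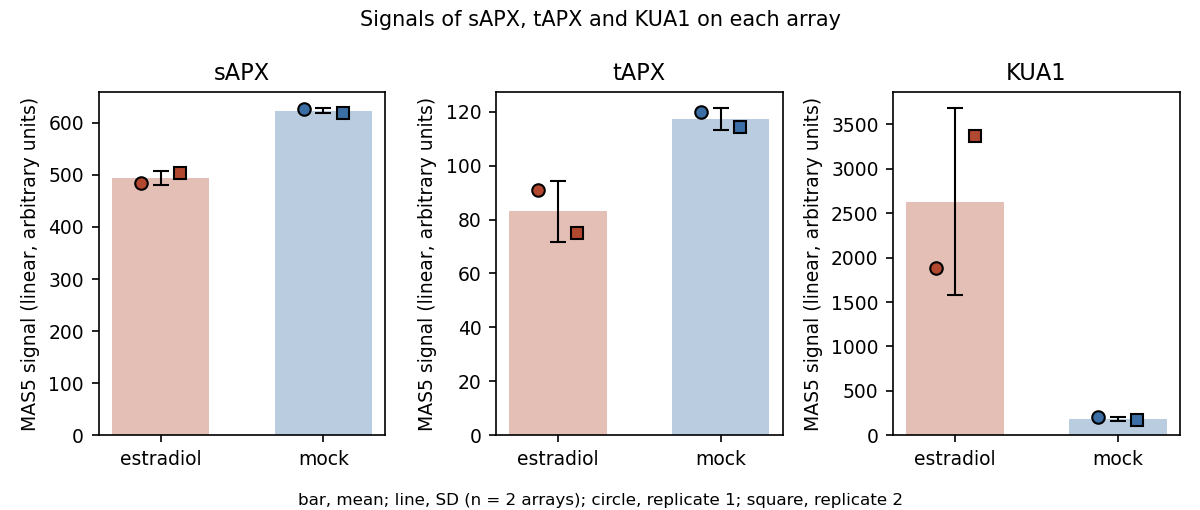
Linear MAS5 signals (vertical axis, arbitrary units, from 0) of sAPX, tAPX and KUA1 in estradiol-treated and mock-treated seedlings, with bars at the mean, lines for the SD of 2 arrays, circles for replicate 1 and squares for replicate 2. The estradiol signals of sAPX (484 and 503) and tAPX (91.1 and 75.1) lie under both mock signals of the same gene, and those of KUA1 (1887 and 3373) lie above.

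With the thresholds of the study's methods, at least 2-fold with P below 0.05 and here applied to geometric means and log2 signals, 0 of the 2 genes passed, as compared with 1.16% of all probe sets. sAPX had a P of 0.00719 by the methods' t-test and tAPX a P of 0.0727, both unadjusted, and neither gene came near a 2-fold difference. In the intervals above, the lower bounds of -0.68 and -0.93 lie short of a log2 fold change of -1, which is 2-fold.

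Differences of this size were common. Of the 14060 probe sets that were not dim in at least 1 group, 13.2% had a lower log2 fold change than sAPX and 6.22% a lower value than tAPX. Among the same probe sets, 1411 had non-overlapping groups and a log2 fold change at least as low as that of sAPX, and 739 one at least as low as that of tAPX. Ordered by the unadjusted limma p, 6.97% of all probe sets came before sAPX and 4.18% before tAPX. Between replicates, the median absolute log2 difference of these 14060 probe sets was 0.220 after estradiol and 0.225 in mock, which is less than the log2 fold changes of both ascorbate peroxidases in size.

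**Figure D2:**
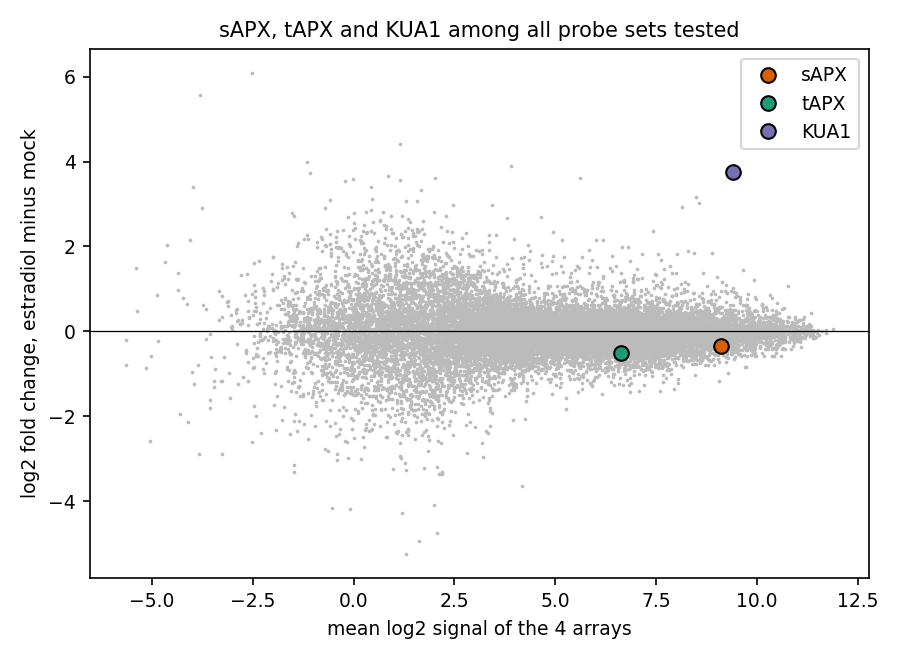
Log2 fold change of estradiol minus mock (vertical axis) against the mean log2 signal of the 4 arrays (horizontal axis), with a grey point for each of the 22746 probe sets tested. sAPX (-0.34) and tAPX (-0.50) lie toward the lower side of the cloud at their brightness, and KUA1 (3.76) lies above it.

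The log2 fold change of tAPX was lower than that of sAPX by 0.17, a difference taken within each array and then between groups as -0.17. An exact permutation test over the 4 arrays (two-sided) gave p = 0.667, but with 2 arrays a group it cannot go below 0.333, so it does not show whether the genes differ. Without estradiol replicate 2, the array with the lowest tAPX signal, both genes had a log2 fold change of -0.36.

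The measured reductases of the ascorbate-glutathione cycle gave log2 fold changes above 0, unlike the ascorbate peroxidases, and none passed the adjusted test. Of 10 reductase genes listed, 3 were measured, their median log2 fold change was 0.32, and in 2 the estradiol arrays both lay above both mock arrays, as in 16.1% of all probe sets. MDAR2 (AT5G03630), a monodehydroascorbate reductase, had signals of 726 and 648 after estradiol and of 495 and 608 in mock, a log2 fold change of 0.32 with an adjusted p of 0.868. GR1 (AT3G24170), the glutathione reductase of cytosol and peroxisomes, had signals of 456 and 668 after estradiol and of 449 and 378 in mock, where the lower estradiol signal was close to the higher mock signal. Its log2 fold change was 0.42 with an adjusted p of 0.869. GR2 (AT3G54660), the glutathione reductase of plastids and mitochondria, had 311 and 316 after estradiol against 347 and 272 in mock, so that its groups overlapped, with a log2 fold change of 0.03. Limma called 0 of the 3, and 0 had an unadjusted p under 0.05. The median of the 3 was 0.15 without estradiol replicate 2, 0.24 without estradiol replicate 1 and 0.20 without mock replicate 1.

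Genes for the synthesis of ascorbate and glutathione had a median between those of the ascorbate peroxidases and the reductases. Of 10 listed, 5 were measured, all of them for ascorbate, with log2 fold changes from -0.45 to -0.09 and a median of -0.13. In 2 of the 5 the estradiol arrays were both lower, as in 18.0% of all probe sets, and 0 had an unadjusted p under 0.05. The lowest value was that of VTC4 (AT3G02870), a phosphatase that releases galactose from its phosphate on the way to ascorbate, with signals of 66.2 and 51.8 after estradiol and of 67.9 and 94.99 in mock. GalDH (AT4G33670), galactose dehydrogenase, had 373 and 396 after estradiol and 406 and 450.1 in mock. GME (AT5G28840), an epimerase of the same route, and GLDH (AT3G47930), the mitochondrial enzyme of its last step, had overlapping groups and log2 fold changes of -0.13 and -0.09. The median of the 5 was -0.23 without mock replicate 1 and -0.20 without estradiol replicate 2.

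Peroxiredoxins, which remove peroxides without ascorbate, differed little between the groups. Of 9 listed, 3 were measured, with log2 fold changes from -0.19 to 0.08. PRXIIE (AT3G52960) of the plastid had signals of 533 and 535 after estradiol and of 589 and 628 in mock, which did not overlap, with a log2 fold change of -0.19 and an adjusted p of 0.938. The plastid 2-Cys peroxiredoxin 2CPA (AT3G11630), with 1724 and 1766 after estradiol against 1630 and 1765 in mock, and the mitochondrial PRXIIF (AT3G06050) had log2 fold changes of 0.04 and 0.08 and overlapping groups. The median of the 3 was 0.04, -0.06 without estradiol replicate 2, -0.02 without mock replicate 1 and 0.10 without mock replicate 2.

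Thioredoxins of the plastid, which reduce disulphides in peroxiredoxins and in enzymes of carbon fixation, gave values on both sides of 0. The list of 7 genes, drawn up by name from the annotation after the data were seen, also held a thioredoxin reductase and sulfiredoxin. All 7 were measured. In 3 the estradiol arrays were both lower (18.0% of all probe sets) and in 2, sulfiredoxin among them, both higher (16.1%). The f-type thioredoxin TRXF2 (AT5G16400), which activates enzymes of carbon fixation in the light, had signals of 170.0 and 141 after estradiol and of 263 and 270.5 in mock, a clear gap between the groups. Its log2 fold change was -0.78 ± 0.16 (SE), with an adjusted p of 0.412. The y-type thioredoxin TRXY2 (AT1G43560) had 357 and 284 after estradiol against 554 and 456 in mock, a log2 fold change of -0.66. Its close relative TRXY1 (AT1G76760) had 71.3 and 69.2 after estradiol against 49.0 and 54.2 in mock, a log2 fold change of 0.45. Sulfiredoxin, SRX (AT1G31170), which repairs overoxidised 2-Cys peroxiredoxins, had 373 and 310 after estradiol against 301 and 296 in mock and a log2 fold change of 0.19. With limma 0 of the 7 were called. An unadjusted p under 0.05 was found for TRXF2 and TRXY2 on the lower side, against 3.79% of all probe sets, and for TRXY1 on the higher side, against 2.73%. The median of the 7 was -0.17, and -0.11 without estradiol replicate 1.

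**Figure D3:**
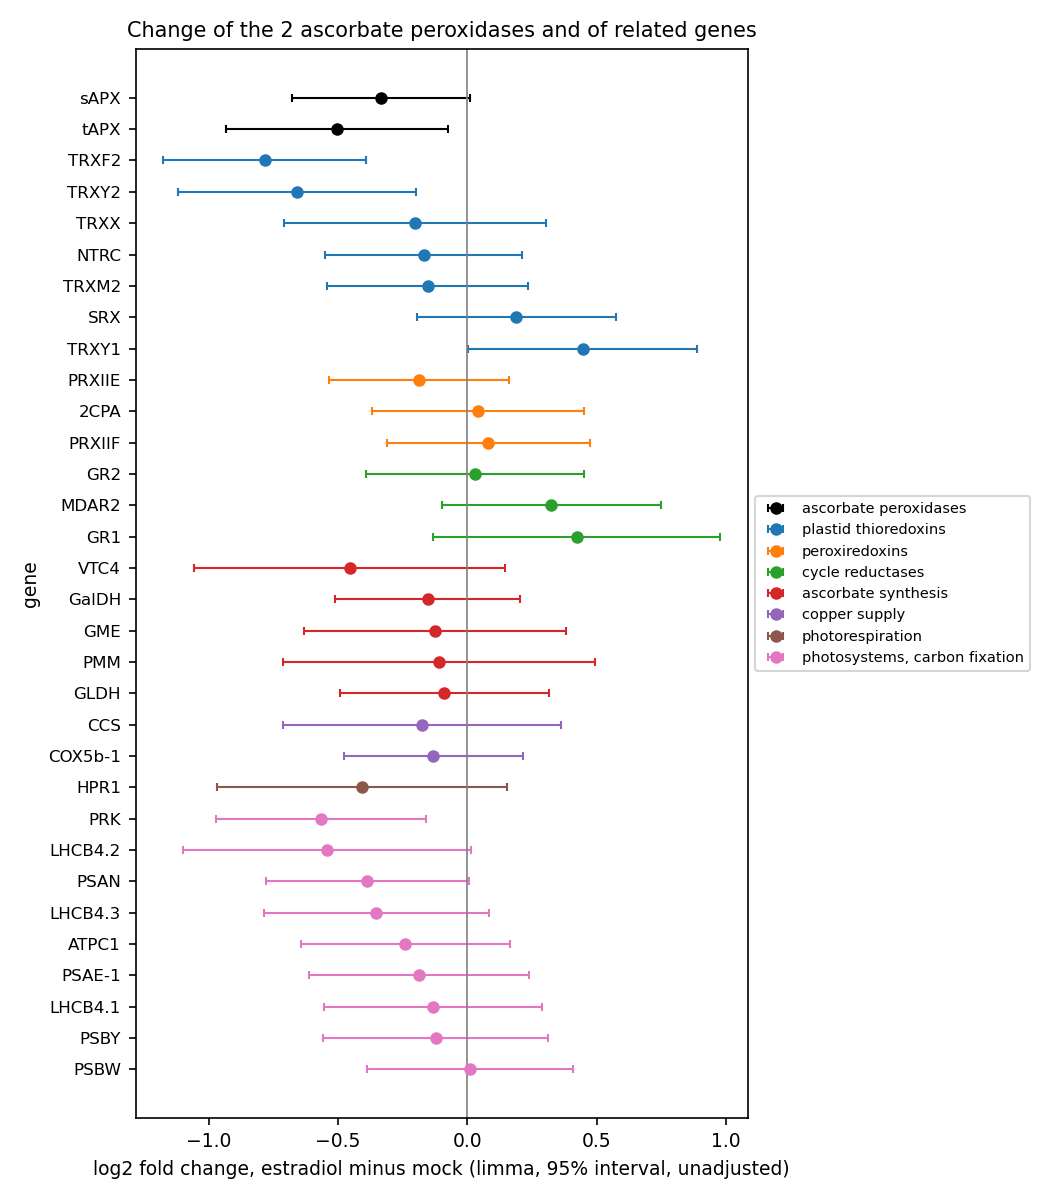
Log2 fold change of estradiol minus mock (horizontal axis) with its unadjusted 95% interval from limma for sAPX, tAPX and the measured genes of related lists, coloured by list. The intervals of tAPX (-0.93 to -0.07), TRXF2, TRXY2 and PRK lie below 0 and that of TRXY1 above 0, whereas that of sAPX (-0.68 to 0.01) reaches just past 0.

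The 9 listed photosynthesis genes of the nucleus, whose products work in the same organelle as sAPX and tAPX, gave mostly lower signals after estradiol, none past the adjusted test. These 9 genes were taken by name from the annotation after the data were seen. In 7 the estradiol arrays both lay under both mock arrays (18.0% of all probe sets), and in 0 both lay above (16.1%). The median log2 fold change of the 9 was -0.24. Their summed signals were 12321 and 12531 after estradiol and 14256 and 14974 in mock. RCA, the measured gene of the leaf marker list, had overlapping groups and a log2 fold change of -0.11. PRK (AT1G32060), phosphoribulokinase of the Calvin cycle, had signals of 1100.3 and 1176 after estradiol and of 1773 and 1599.7 in mock, a log2 fold change of -0.57 with an unadjusted p of 0.0145 and an adjusted p of 0.617. PSAN (AT5G64040), a subunit of photosystem I, had a log2 fold change of -0.39, and LHCB4.2 (AT3G08940) and LHCB4.3 (AT2G40100), minor antenna proteins of photosystem II, had -0.54 and -0.35. Limma called 0 of the 9 after adjustment. The 69 plastid-encoded genes with a probe set of their own, also added after the data were seen, gave other values. Among them, 1 (1.45%) had both estradiol arrays lower and 22 (31.9%) had both higher, against 18.0% and 16.1% of all probe sets. Their median log2 fold change was 0.16. Of these 69, 0 were called by limma, 0 passed 2-fold with P below 0.05 and 14 were dim in both groups. Whether the values of the ascorbate peroxidases go along with either set was not tested.

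Few genes of the remaining lists had a named probe set of their own. Of the 7 enzymes of peroxisomal photorespiration, the route that feeds hydrogen peroxide to catalase, HPR1 (AT1G68010), hydroxypyruvate reductase, was measured. It had signals of 1156 and 1599 after estradiol and of 1994 and 1633 in mock, with the second estradiol array close to the second mock array, and a log2 fold change of -0.41 with an adjusted p of 0.882. That value was -0.17 without estradiol replicate 1, -0.64 without estradiol replicate 2 and -0.26 without mock replicate 1. Of 7 genes for the copper supply of superoxide dismutases, 2 were measured. CCS (AT1G12520), the chaperone that loads copper into these enzymes, had 136 and 195 after estradiol against 200 and 169 in mock and overlapping groups. COX5b-1 (AT3G15640), a subunit of cytochrome c oxidase that shares a microRNA with copper superoxide dismutases, had 284 and 296 after estradiol against 305 and 331 in mock and a log2 fold change of -0.13. Of 8 genes for the heat shock factor HSFA2 and heat shock proteins, HSP22 (AT4G10250) and HSP17.6C (AT1G53540) were measured. The estradiol arrays were far apart for both genes, and the mock arrays were far apart for HSP17.6C but close for HSP22. HSP22 had 75.3 and 16.4 after estradiol against 26.6 and 23.1 in mock, and HSP17.6C had 144 and 49.9 after estradiol against 62.6 and 147 in mock. None of the 8 other ascorbate peroxidases and superoxide dismutases listed, and none of 8 glutathione peroxidase-like enzymes, had a named probe set of its own.

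**Figure D4:**
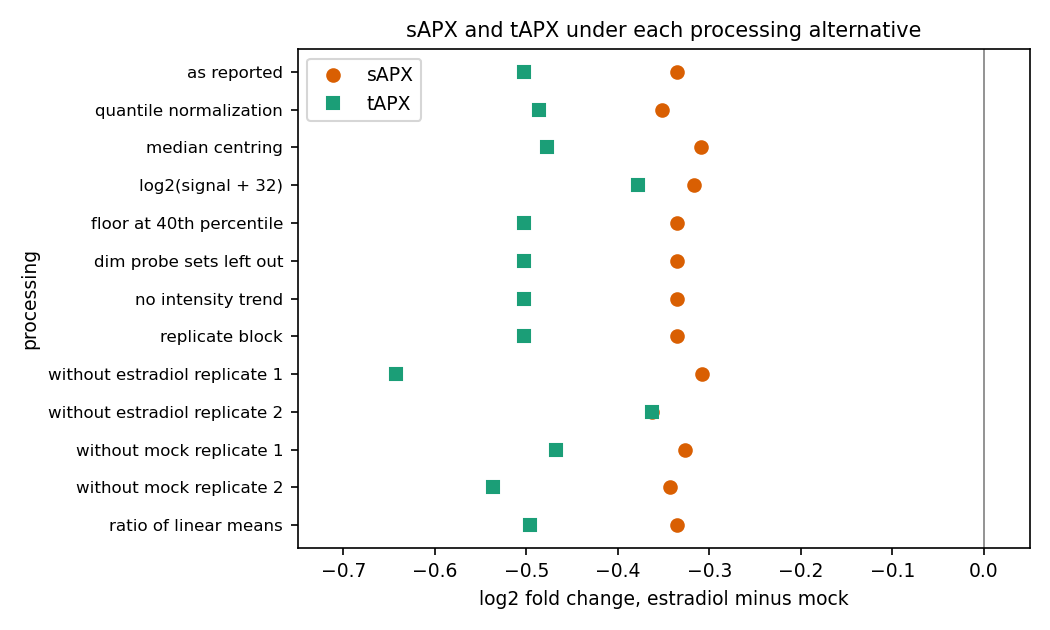
Log2 fold change of estradiol minus mock (horizontal axis) of sAPX (circles) and tAPX (squares) under each way of processing (vertical axis), the first as reported and the others changing 1 choice. Every value is below 0, from -0.36 to -0.31 for sAPX and from -0.64 to -0.36 for tAPX. As the groups of both genes do not overlap, only quantile normalization and median centring could have changed the sign.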

How the data were processed

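For each of 4 ATH1 arrays (2 estradiol, 2 mock) the authors deposited a linear intensity for every probe set, computed with MAS5. Its version and any further step between arrays are not stated in the sources. Of 22810 probe sets, 64 controls were left out. All signals were above 0 and were taken to log2 without an offset. The comparison used limma 3.58.1 under R 4.3.3, without a block and with a prior variance that follows the mean signal (lmFit, eBayes). Benjamini-Hochberg adjustment ran over all 22746 probe sets. Scripts were tested on simulated data. The number of arrays limits the precision. The replicates are biological by the study's methods, which describe no separate days, and p-values cover only the spread between these arrays.

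Gene names of probe sets came from the platform table through gene identifiers matched to RefSeq locus tags (TAIR10.1). It lists 14016 of the probe sets, 13513 with 1 gene and 503 with several. Genes were matched only to a probe set of their own. No promoter or protein sequences were used here. The members and the 10 gene lists were chosen with earlier results of these data known, and 2 more lists (plastid thioredoxins, nuclear photosynthesis genes) and the set of all plastid-encoded genes were added from the annotation after the data were seen. The text names all measured members, KUA1 and from each list the up to 4 genes lowest in limma p. A list is described by its counts and median, with no test. Alternatives were quantile normalization, median centring, log2(signal + 32), a floor at the 40th percentile of each array, dim probe sets left out, no intensity trend, a replicate block, each array left out and the methods' t-test on linear signals or after adjustment.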

Additional observations from a re-analysis of the deposited data

How the results depend on the processing

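Both ascorbate peroxidases kept a log2 fold change below 0 and stayed short of limma's adjusted threshold under each alternative run. As their groups did not overlap, only quantile normalization and median centring could have changed the sign. The value of sAPX lay between -0.36 and -0.31 and that of tAPX between -0.64 and -0.36, both ends of the tAPX range coming from leaving out an estradiol replicate. The count of genes past 2-fold with P below 0.05 was 0 and the count of genes with lower, non-overlapping groups was 2 wherever they were recomputed. Only quantile normalization and median centring could have changed the second count, because the other alternatives keep the order of these signals. The median of the 2 genes, -0.42, moved by more than its spread between arrays with log2(signal + 32), to -0.35, and lay between -0.48 and -0.36 with an array left out. Leaving out an array leaves its group with 1 array, which is assumed to vary like the other group, so the methods' t-test was not run there. Of 110 list medians under alternatives, 9 moved by more than their spread and 4 changed sign.

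Limma called 0 of all probe sets except with the floor at the 40th percentile, where it called 565, neither ascorbate peroxidase among them, and 81 of the 565 lay at the floor on both arrays of a group (the cause was not tested), and with the crossed pairing below. With the replicate block the median of the 2 genes stayed at -0.42, 0 were called, and 1044 probe sets had an unadjusted p under 0.05, against 1481 without it. The deviations of same-numbered arrays correlated at -0.13 over all probe sets and at -0.30 over the 13236 not dim in either group. These values give no sign of a pairing by number, but they cannot show how the samples were paired. The crossed pairing, chosen after seeing the data, called 3 probe sets, 0 of them members, and gave 2336 an unadjusted p under 0.05. The unadjusted limma p of sAPX lay between 0.0388 and 0.2 over the alternatives other than the crossed pairing, and that of tAPX between 0.0288 and 0.153, with 2 arrays a group limiting the precision.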
